A study of Rattus norvegicus with 4 samples.

Results

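The genes described here encode the hypoxia-inducible factor (HIF) subunits and the enzymes that set their stability: the α subunits Hif1a, Epas1 and Hif3a, the β subunits Arnt and Arnt2, the prolyl hydroxylases Egln1, Egln2 and Egln3, the asparaginyl hydroxylase Hif1an and the ubiquitin ligase subunit Vhl. These 10 genes were chosen by name, for their place in the oxygen-sensing pathway, from the 32883 genes of the expression table. RNA sequencing had been run on carotid bodies of Sprague Dawley rats, the small chemosensory organ at the carotid bifurcation that reports low blood oxygen. There were 2 libraries from neonates at day 5 and 2 from animals called adults at day 21, an age near weaning. According to the labels, each neonatal library pooled 6 pups and each adult library pooled 3 animals. The methods give larger pools and more replicates than the labels. The paper states that females and males were both included, but does not give the sexes for each age. No altered allele is named, and the pups were killed with urethane injected before the tissue was taken. According to the methods, part of the litter was kept to day 21, so the ages may share litters. Pool size went with age, so these cannot be told apart.

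In normal oxygen the prolyl hydroxylases mark the HIF α subunits, the VHL protein then binds them, and its ubiquitin ligase sends them for degradation. When oxygen falls this hydroxylation slows, the α subunit persists, pairs with an ARNT subunit and switches on target genes. The enzyme encoded by Hif1an also acts in normal oxygen, where it blocks the contact of the α subunit with the coactivators EP300 and CREBBP. In the carotid body the oxygen-sensing glomus cells are known for high expression of Epas1, the gene of HIF-2α. All values below are RNA levels, whereas the α subunits are governed largely at the level of the protein, which was not measured here.

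HIF binds DNA at a short core, written ACGTG or GCGTG, and several genes of the pathway are themselves known HIF targets. The core was therefore looked for on both strands of the 250 bases before an annotated start of each gene (GRCr8), in 11 windows for the 10 genes. It was found for 4 of the 10 genes, in 36.4% of these windows. The same letters stood in 53.9% of the 11541 windows of genes tested and in 36.7% of all 33469 windows, so the core was not more frequent here than in the genes tested. The stretches that hold it are shown 5′ to 3′ on the strand of the gene, with the core or its reverse complement in capitals, since they let the promoters of called and uncalled genes be compared. They lie in chr6:98359648-98359768 (plus strand) for Hif1a, chr1:86877998-86878088 (minus) for Hif3a, chr2:185686631-185686695 (plus) for Arnt and chr19:69804703-69804767 (minus) for Egln1.
Hif1a: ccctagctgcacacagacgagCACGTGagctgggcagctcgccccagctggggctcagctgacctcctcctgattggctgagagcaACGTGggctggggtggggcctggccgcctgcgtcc
Hif3a: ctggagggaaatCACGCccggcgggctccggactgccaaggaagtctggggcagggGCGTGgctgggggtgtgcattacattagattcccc
Arnt: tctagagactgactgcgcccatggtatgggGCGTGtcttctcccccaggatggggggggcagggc
Egln1: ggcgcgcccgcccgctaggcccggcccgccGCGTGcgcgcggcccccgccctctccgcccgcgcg
In Hif1a the first core is a palindrome that reads as a match on either strand, at 229 and 228 bases before the start, and a further core stood at 164 bases. Hif3a held a core 238 and 194 bases before the start, Arnt at 42 bases and Egln1 at 56 bases. A match in these letters is a description of the sequence only. In 5 of the 11 windows the start used was the outermost RefSeq start of the gene. For the remainder it was a different one, and other start sites were not read.

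The libraries held 36286191 to 39476110 estimated counts, and a count of 3 in a library corresponded to 0.0760 to 0.0827 counts per 1000000 counts of the library (CPM). Levels are given as CPM of each library's total, which were not scaled further, and are not compared between genes because transcript length was not used here. Fold changes (neonate over adult) came from the quasi-likelihood test of edgeR with TMM normalisation, and adjusted p is after Benjamini-Hochberg over the 13843 genes tested. TMM factors were 0.902 and 0.935 in the neonatal libraries and 1.08 and 1.10 in the adult libraries, so scaled and unscaled levels differ, and without TMM the median of all genes lay at a log2 fold change of -0.25. The tissue carried its defining cells at both ages: all 11 glomus cell markers were expressed, and tyrosine hydroxylase (Th) stood at 917 and 781 CPM in neonates and 1517 and 1242 CPM in adults. Neonatal replicate 1 stood apart in the parathyroid markers, which summed to 1616 CPM there, 197 CPM in neonatal replicate 2 and at most 0.0551 CPM in adults. Libraries of the same age differed by more than counting error, with a chi-square per degree of freedom of 32.6 between neonates and 15.4 between adults.

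Most of the HIF machinery was expressed at a lower level in neonates than in adults, while 2 prolyl hydroxylases went the other way. Epas1, Hif3a, Arnt, Arnt2, Hif1an and Vhl were lower in neonates, Egln2 and Egln3 were higher, and Hif1a and Egln1 did not pass the test. All 10 genes were tested, and 6 were called lower at an adjusted p below 0.05 against 31.1% of all genes tested, while 2 were called higher against 31.2% of all genes. At a 2-fold change or more, 4 of the 10 (Hif3a, Arnt, Arnt2 and Hif1an) were lower, compared with 13.2% of all genes, and 0 were higher, compared with 7.68%. Of these, Hif3a and Hif1an reached 1 CPM in both adult libraries but in only 1 neonatal library, so they entered the test through the age in which they were higher. Where a mean of 5 CPM was required they were not tested, and 4 of 8 genes were called lower and 2 higher at any fold. The median log2 fold change of the 10 genes was -0.60, whereas that of all genes was -0.0029. In unscaled CPM every gene separated the ages, with 8 of 10 lower in both neonatal libraries (55.3% of all genes) and 2 of 10 higher (27.9% of all genes). In bulk tissue, fewer cells of a type and less RNA per cell cannot be told apart.

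**Figure D1:**
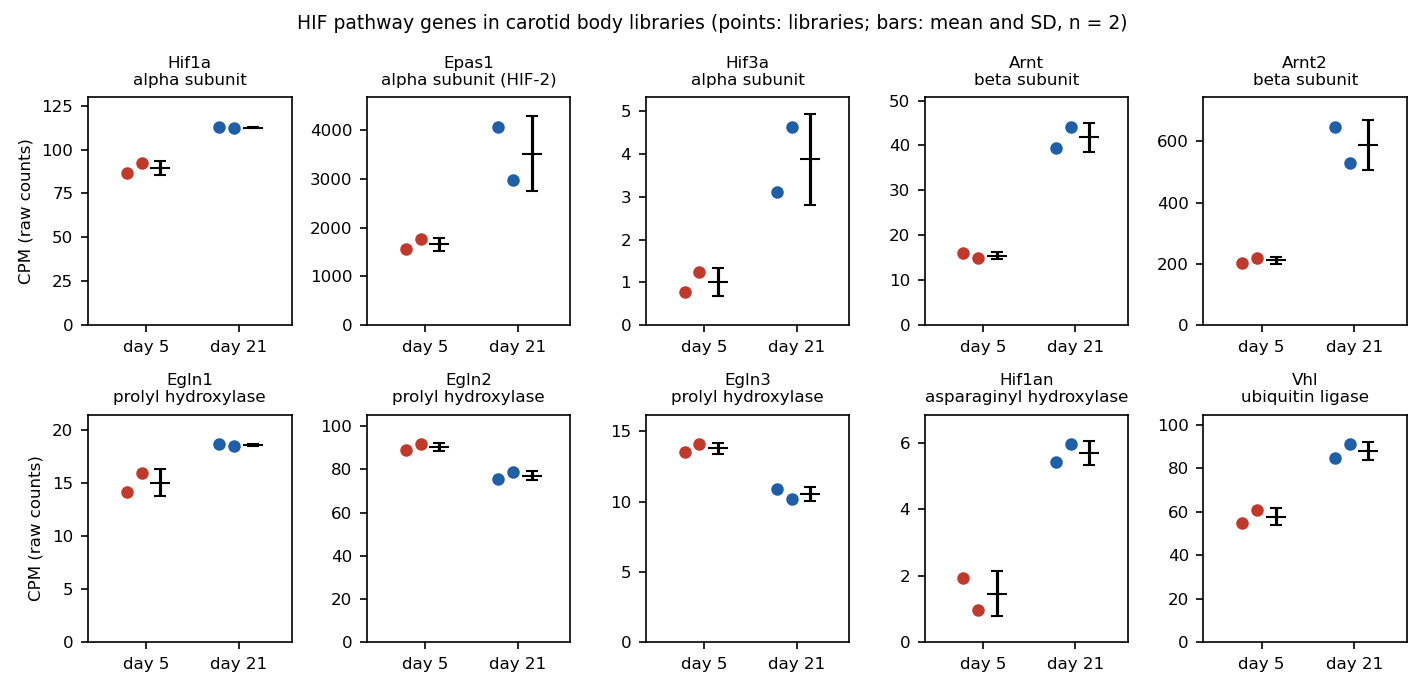
Level of each of the 10 genes in each of the 4 libraries, in CPM on a linear axis from 0, with the mean and SD (n = 2) beside the points. The libraries of an age do not overlap those of the other age for any gene; Egln2 and Egln3 are the genes that stand higher in neonates.

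Among the α subunits, Epas1 (ENSRNOG00000021318), which encodes HIF-2α, stood at 1568 and 1760 CPM in neonatal replicates 1 and 2 and at 4067 and 2982 CPM in adult replicates 1 and 2. Both adult libraries were above both neonatal libraries, and the adult pair was the more spread of the age groups. The means were 1664 ± 136 CPM in neonates and 3525 ± 767 CPM in adults (SD, n = 2 libraries). Epas1 was 1.79-fold lower in neonates (95% confidence interval 1.41 to 2.27), a log2 fold change of -0.84 (SE 0.15, edgeR adjusted p = 0.0012). The adult libraries differed 1.36-fold from each other in this gene, a wider gap than in 92.0% of genes, and the age difference was larger than that gap. Without adult replicate 1 the log2 fold change was -0.62 (edgeR adjusted p = 0.0019), and without adult replicate 2 it was -1.08 (edgeR adjusted p = 5.5e-05).

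Hif1a (ENSRNOG00000008292) encodes HIF-1α, the broadly expressed α subunit. It stood at 86.5 and 92.3 CPM in neonates and 113 and 112 CPM in adults, with means of 89.4 ± 4.11 and 112 ± 0.460 CPM (SD, n = 2 libraries). The adult libraries were higher in unscaled CPM, but with TMM the log2 fold change was -0.09 (SE 0.074, 95% confidence interval -0.25 to 0.08, edgeR adjusted p = 0.33). The interval allows Hif1a to be up to 1.19-fold lower in neonates. With library size alone it was -0.33 (edgeR adjusted p = 0.0067), so the call for this gene depended on the scaling.

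Hif3a (ENSRNOG00000017198) encodes the α subunit with a weaker and partly inhibitory role. It was the faintest of the α subunits in counts, with 31 and 48 estimated counts in neonates and 118 and 168 in adults. These correspond to 0.785 and 1.25 CPM in neonates and 3.12 and 4.63 CPM in adults, and the ages did not overlap. Hif3a was 3.22-fold lower in neonates (95% confidence interval 1.79 to 5.78), with a log2 fold change of -1.69 (SE 0.37, edgeR adjusted p = 0.0038). It reached the minimum of 1 CPM in both adult libraries and in 1 neonatal library, so that it entered the test through the age in which it was higher. The neonatal libraries differed 1.59-fold and the adult libraries 1.48-fold, and with any library left out the log2 fold change lay between -2.01 and -1.40.

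Both β subunits were lower in neonates by a similar factor. Arnt (ENSRNOG00000031174), the general partner of the HIF α subunits and of the dioxin receptor, stood at 16.0 and 14.9 CPM in neonates and 39.5 and 44.1 CPM in adults. Neonatal libraries were close to each other and lay well below the adult libraries. Arnt was 2.28-fold lower in neonates (95% confidence interval 1.93 to 2.70), with a log2 fold change of -1.19 (SE 0.11, edgeR adjusted p = 2.9e-05). Arnt2 (ENSRNOG00000013017), the partner enriched in neural tissue, stood at 204 and 221 CPM in neonates and 647 and 530.2 CPM in adults. As for Epas1, adult replicate 1 was the highest library, and the ages did not overlap. It was 2.34-fold lower in neonates (95% confidence interval 1.97 to 2.78), with a log2 fold change of -1.23 (SE 0.11, edgeR adjusted p = 2.9e-05).

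The 3 prolyl hydroxylases did not move together. Egln1 (ENSRNOG00000019773) encodes PHD2, the principal oxygen sensor for HIF-1α, and stood at 14.1 and 15.9 CPM in neonates and 18.6 and 18.5 CPM in adults. It did not pass the test, with a log2 fold change of -0.06 (SE 0.12, 95% confidence interval -0.34 to 0.22, edgeR adjusted p = 0.69). Without neonatal replicate 1 its sign turned to 0.010, and some of its estimated counts were not whole, as occurs where reads are shared between transcripts of several genes.

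Egln2 (ENSRNOG00000020947) encodes PHD1, the mostly nuclear prolyl hydroxylase. Its levels of 88.9 and 91.6 CPM in neonates exceeded those of 75.6 and 78.7 CPM in adults, and the libraries of each age were within 1.04-fold of each other. Egln2 was 1.39-fold higher in neonates (95% confidence interval 1.23 to 1.57), with a log2 fold change of 0.47 (SE 0.077, edgeR adjusted p = 0.00073). Egln3 (ENSRNOG00000005053) encodes PHD3, itself a HIF-inducible gene in many cells. It stood at 13.5 and 14.1 CPM in neonates and 10.9 and 10.2 CPM in adults, again without overlap. It was 1.55-fold higher in neonates (95% confidence interval 1.23 to 1.96), with a log2 fold change of 0.64 (SE 0.15, edgeR adjusted p = 0.0048). With library size alone the log2 fold changes were 0.23 for Egln2 (edgeR adjusted p = 0.039) and 0.39 for Egln3 (edgeR adjusted p = 0.044), and both calls were kept.

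Hif1an (ENSRNOG00000014234), which encodes the asparaginyl hydroxylase FIH, stood at 1.95 and 0.987 CPM in neonates and 5.43 and 5.95 CPM in adults. The neonatal libraries rested on 77 and 38 estimated counts and the adult libraries on 205 and 216. Both neonatal libraries lay below both adult libraries, but they differed 1.98-fold from each other, more than 96.4% of genes did. Hif1an was 3.24-fold lower in neonates (95% confidence interval 1.84 to 5.71), with a log2 fold change of -1.70 (SE 0.36, edgeR adjusted p = 0.0031). The size of this change rested on the neonatal library used: the log2 fold change was -2.29 without neonatal replicate 1 and -1.25 without neonatal replicate 2, and the call was kept in each case. Like Hif3a, it reached 1 CPM in both adult libraries and 1 neonatal library.

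Vhl (ENSRNOG00000010258), the substrate-recognition subunit of the ligase that removes hydroxylated α subunits, stood at 54.9 and 60.6 CPM in neonates and 84.9 and 90.9 CPM in adults. The ages did not overlap. Vhl was 1.28-fold lower in neonates (95% confidence interval 1.12 to 1.47), the smallest of the 6 called decreases, with a log2 fold change of -0.36 (SE 0.085, edgeR adjusted p = 0.0054).

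Set against all genes tested, the log2 fold changes of Hif1an and Hif3a had 5.09% and 5.17% of genes below them, those of Arnt2 and Arnt 9.95% and 10.6%, and that of Epas1 16.7%. Vhl stood at 32.0%, Hif1a and Egln1 near the middle at 45.5% and 46.9%, and Egln2 and Egln3 at 76.0% and 83.0%. The 2 called increases were thus no more extreme than many other genes. Without TMM, 2 of the 10 genes were called higher and 7 lower, against 18.7% and 43.3% of all genes, and Hif1a was the gene added.

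**Figure D2:**
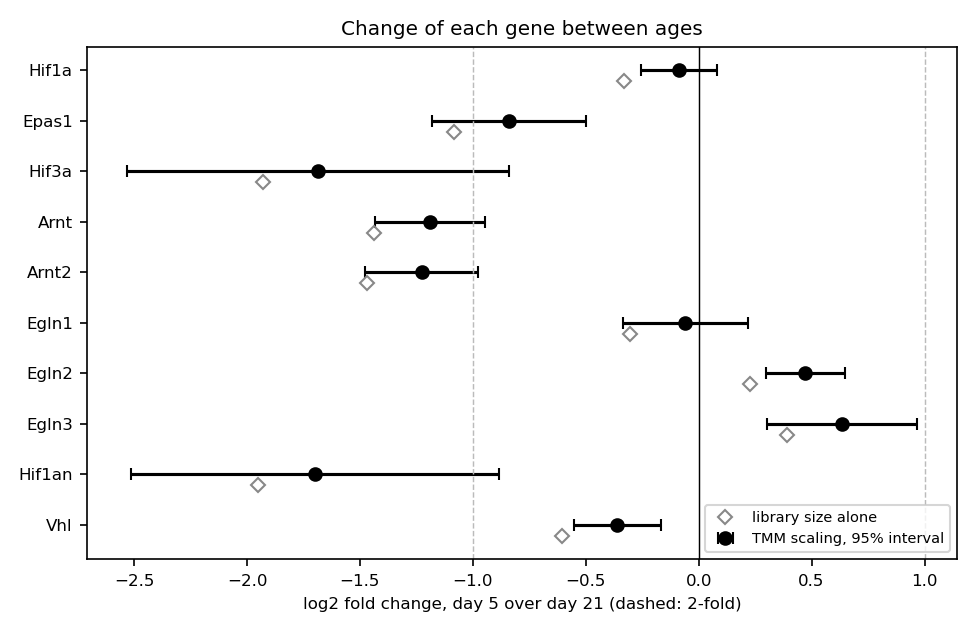
Log2 fold change of each of the 10 genes, neonate over adult, from edgeR with TMM (filled points with 95% confidence intervals) and with library size alone (open diamonds). The intervals of Hif1a and Egln1 with TMM cross 0, those of Egln2 and Egln3 lie above 0 and the other 6 lie below 0.

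Ratios of related genes within a library do not depend on how libraries are scaled, and 7 were formed to ask whether the balance of the subunits changed with age. The Epas1 to Hif1a ratio was 18.1 and 19.1 in neonates and 36.1 and 26.6 in adults, and thus 1.67-fold lower in neonates. The ages did not overlap, as was true of every ratio except Arnt2 to Arnt. Hif3a relative to Hif1a was 3.05-fold lower in neonates. The Arnt2 to Arnt ratio was 12.8 and 14.8 in neonates and 16.4 and 12.0 in adults, so the adult libraries enclosed the neonatal ones and the mean differed by 1.02-fold.

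Within the hydroxylases, Egln3 relative to Egln1 was 0.957 and 0.883 in neonates and 0.584 and 0.550 in adults, 1.62-fold higher in neonates. Egln1 relative to Egln2 was 0.159 and 0.174 in neonates and 0.246 and 0.235 in adults, 1.45-fold lower in neonates. Egln1, the hydroxylase with no called change, was thus lower in neonates relative to both of the others. Vhl relative to Egln1 was 1.23-fold lower and Hif1an relative to Egln1 was 3.31-fold lower in neonates. With 2 libraries against 2, the exact two-sided permutation test cannot go below p = 0.333, which the 6 separated ratios reached (adjusted p = 0.389 over the 7 ratios). The ratio of Arnt2 to Arnt gave p = 1 in the same exact test.

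**Figure D3:**
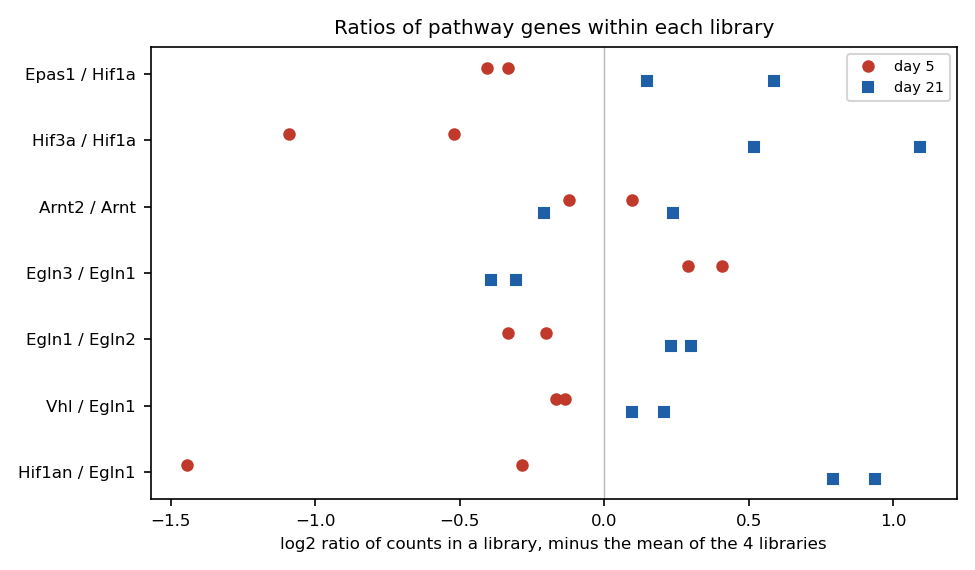
Within-library ratios of related genes in the 4 libraries, as log2 of the count ratio centred on the mean of the 4 libraries. Points of the 2 ages lie apart in every ratio except Arnt2 to Arnt, where the adult libraries lie on either side of the neonatal ones.

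Marker genes of the cell types in the tissue also moved with age. Each count of markers below stands against 31.2% of all genes called higher and 31.1% called lower. All 6 sympathetic neuron markers were called higher in neonates, and their summed level was 1470.1 and 1302 CPM in neonates and 1045 and 834 CPM in adults. Fibroblast markers summed to 5577 and 7023 CPM in neonates and 8936 and 9509 CPM in adults, with 0 of 4 higher and 3 of 4 lower in neonates. Of the 8 pericyte and smooth muscle markers, 2 were higher and 5 were lower in neonates, with sums of 1070.3 and 1209 CPM in neonates and 1442 and 1663 CPM in adults. Glomus markers summed to 5111 and 4023 CPM in neonates and 5446 and 4593 CPM in adults, so their sum overlapped between the ages. Of these 11 markers, 4 were higher and 3 were lower. The overlap rested on Chga, at 1552 CPM in neonatal replicate 1, 740 CPM in neonatal replicate 2, and 848 and 723 CPM in adults. Gata3, also called higher, stood at 11.5 and 5.35 CPM in neonatal replicates 1 and 2. Neonatal replicate 1 also held the most parathyroid marker RNA, and a link was not tested. Ratios to the glomus sum include Chga. Endothelial markers, a class of cells also known for Epas1, summed to 1305 and 1357 CPM in neonates and 1493 and 1541 CPM in adults, with 3 of 9 higher and 3 lower. Sustentacular and Schwann cell markers summed to 780.1 CPM in neonatal replicate 1 and to between 1579 and 1712 CPM in the other libraries. Blood and dividing cells were more prominent in neonates, in which erythroid markers summed to 11615 and 6846 CPM against 3031 and 2682 CPM in adults and cell cycle markers to 477 and 416 CPM against 116 and 119 CPM.

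Macrophage markers summed to 52.5 and 58.4 CPM in neonates and 102.3 and 105.4 CPM in adults, with 1 of 5 higher and 3 lower. Adipocyte markers, of which 0 of 3 were higher and 2 were lower, summed to 14.2 and 12.6 CPM in neonates and 32.0 and 45.6 CPM in adults. Skeletal muscle markers stayed low, at 11.6 and 19.6 CPM in neonates and 15.8 and 22.5 CPM in adults.

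Each of the 10 genes was then divided by the summed markers of each of 8 cell classes, a comparison added after the values were seen, in which parathyroid, skeletal muscle, erythroid and cell cycle markers were not used. Arnt, Arnt2, Hif3a and Hif1an were each lower in both neonatal libraries against 7 of the 8 classes, and the ages overlapped against adipocyte markers. For that class the log2 differences were 0.08 for Arnt, 0.05 for Arnt2, -0.43 for Hif3a and -0.52 for Hif1an. Epas1 was lower against 5 classes, glomus and endothelial markers included, and overlapped against sustentacular and Schwann cell, macrophage and adipocyte markers, with log2 differences of -1.64 to 0.44 over the 8. Vhl was lower against 4 classes, higher against macrophage and adipocyte markers and overlapped against 2. Egln3 was higher in neonates against 7 classes and overlapped against sympathetic neuron markers, and Egln2 was higher against 7 and lower against sympathetic neuron markers. Hif1a and Egln1 took no single direction, with log2 differences of -0.90 to 1.18 and -0.87 to 1.21. How much of each difference follows cell makeup was not tested.

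**Figure D4:**
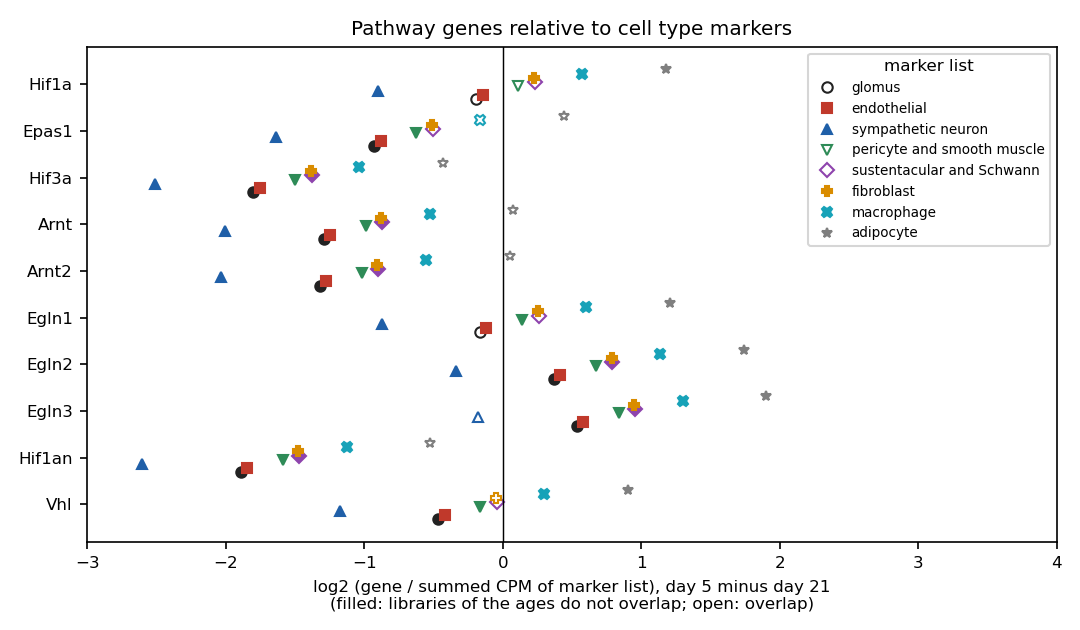
Log2 difference, neonate minus adult, of each of the 10 genes divided by the summed markers of each of 8 cell classes (filled: libraries of the ages do not overlap; open: they overlap). Hif3a and Hif1an lie below 0 for all 8 classes, Arnt and Arnt2 for all but adipocyte markers, and Egln2 and Egln3 above 0 for all but sympathetic neuron markers.

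The partners of these genes were examined next, as 30 genes for the VHL ligase, the coactivators, proteins that alter HIF stability and other PAS-domain factors. Of the 22 tested, 9 were higher in neonates, 6 were lower and 7 did not pass, with a median log2 fold change of 0.19. These shares of 40.9% higher and 27.3% lower stand beside 31.2% and 31.1% of all genes. With library size alone 6 were higher and 8 were lower, so the balance of directions depended on the scaling.

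Of the 6 genes of the VHL ligase and its NEDD8 activation, 4 passed with higher levels on day 5 and 0 with lower levels, against 31.2% and 31.1% of all genes, while Vhl itself was lower. Elob, the elongin B subunit that binds VHL, stood at 175 and 151 CPM in neonates and 95.9 and 93.0 CPM in adults, 2.04-fold higher in neonates (log2 fold change 1.03, SE 0.097, edgeR adjusted p = 3.6e-05). Its partner Eloc stood at 72.0 and 75.8 CPM in neonates and 60.5 and 57.5 CPM in adults, with a log2 fold change of 0.57 (edgeR adjusted p = 0.00042). Both were assigned counts that were not whole, so reads may be shared with similar copies. Nedd8, the modifier that activates cullins, rose by a log2 fold change of 0.62 (edgeR adjusted p = 0.00013), and Ube2m, its conjugating enzyme, named after its value was seen, by 0.50 (edgeR adjusted p = 0.00063). All 4 calls were kept with library size alone, under which 18.7% of all genes were higher and 43.3% lower. The scaffold Cul2 had a log2 fold change of 0.12 (edgeR adjusted p = 0.26) and the RING subunit Rbx1 one of 0.25 (edgeR adjusted p = 0.068), and with library size alone both turned sign, to -0.13 and -0.00054.

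The coactivators that HIF recruits differed between them. Ep300 stood at 2.89 and 3.12 CPM in neonates and 7.73 and 10.1 CPM in adults, 2.50-fold lower in neonates (log2 fold change -1.32, SE 0.24, edgeR adjusted p = 0.0013). Its paralog Crebbp stood at 88.7 and 114 CPM in neonates and 100.4 and 101 CPM in adults, where the neonatal libraries enclosed the adult ones (log2 fold change 0.25, edgeR adjusted p = 0.059). Cited2, which competes with HIF for these coactivators, was higher in neonates, at 50.6 and 51.6 CPM against 42.4 and 33.3 CPM (log2 fold change 0.68, edgeR adjusted p = 0.0013). P4htm, a membrane-bound prolyl hydroxylase related to the Egln genes, stood at 9.65 and 9.69 CPM in neonates and 23.0 and 21.5 CPM in adults, with a log2 fold change of -0.96 (edgeR adjusted p = 0.00025). Of the 8 genes known to alter HIF stability, P4htm included, 2 were lower, 3 were higher and 3 did not pass. Over all genes 31.1% were lower and 31.2% were higher. The following are named after their values were seen. Os9 was the other gene that was lower, with a log2 fold change of -0.67 (edgeR adjusted p = 8.3e-05). Hsp90aa1, Siah2 and Rack1 were the higher genes, at 0.31, 0.45 and 0.24, but none of them was called with library size alone, where Rack1 turned sign to -0.0042, and each call was also lost in fits that left out a library.

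Among the 5 other PAS and bHLH factors tested, 3 were lower (31.1% of all genes), 1 was higher (31.2% of all genes) and 1 did not pass. Npas2, a clock factor related to the HIF subunits, stood at 4.31 and 4.93 CPM in neonates and 13.5 and 17.9 CPM in adults, 2.86-fold lower in neonates (log2 fold change -1.52, edgeR adjusted p = 0.00022). Bhlhe40, a repressor that is also a HIF target, had a log2 fold change of -1.25 (edgeR adjusted p = 5.9e-05). The remaining calls, named here after their values were seen, were Clock at -0.87 (edgeR adjusted p = 2.3e-05) and Arntl, a close relative of Arnt, at 0.51 (edgeR adjusted p = 0.0017). Arntl therefore went the other way from Arnt and Arnt2.

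HIF target genes were examined for whether their RNA moved in a common direction. Of 58 genes listed, 53 were tested, and 16 were higher in neonates, 17 were lower and 20 did not pass. These are 30.2% and 32.1% of the genes tested, close to the shares over all genes. The median log2 fold change was 0.00038. With library size alone 6 were higher and 24 were lower, shares of 11.3% and 45.3% that stand beside 18.7% and 43.3% of all genes under that scaling.

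Targets are given next by role, a grouping made after the values were seen, and each count stands against 31.2% of all genes called higher and 31.1% called lower. Of 12 glycolytic enzymes, 2 were higher (Tpi1 and Aldoa), 4 were lower (Hk1, Pfkp, Aldoc and Pkm) and 6 did not pass, with log2 fold changes from -0.73 to 0.38. Of the 5 genes tested for glucose transport, Pfkfb enzymes, lactate export and pyruvate dehydrogenase kinase, 2 were lower (Slc2a1 and Pfkfb3), 0 were higher and 3 did not pass. The call for Aldoc was lost without neonatal replicate 2 (edgeR adjusted p = 0.066). Of the 5 collagen-processing enzymes, 4 were lower in neonates (P4ha1, P4ha2, Lox and Loxl2) and 0 were higher, from -2.19 to -0.16. The call for Lox was lost without neonatal replicate 1 and without adult replicate 2, with an edgeR adjusted p of up to 0.14. Of the 4 fibroblast markers tested, 3 were also lower in neonates, while Col1a1 did not pass (log2 fold change -0.13, edgeR adjusted p = 0.38). Whether the collagen-processing genes follow cell makeup was not tested. Among the vessel-related and secreted factors, Vegfa, Angptl4, Cxcr4 and Mif were higher in neonates, and Adm and Edn1 did not pass. With library size alone Tpi1, Aldoa, Vegfa and Cxcr4 were no longer called, and the calls for Aldoa and Cxcr4 were also lost in fits that left out a library. Neither of the mitophagy receptors Bnip3 and Bnip3l passed, with log2 fold changes of -0.04 and 0.07.

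Angptl4, a secreted inhibitor of lipoprotein lipase, was the target with the greatest increase, at 35.4 and 37.6 CPM in neonates and 7.97 and 9.29 CPM in adults (5.02-fold, log2 fold change 2.33, edgeR adjusted p = 2.1e-06). Ca9, a carbonic anhydrase widely used as a marker of hypoxia, stood at 2.94 and 2.49 CPM in neonates and 1.22 and 1.21 CPM in adults (log2 fold change 1.41, edgeR adjusted p = 0.0057). Wsb1 and Hmox1, which encode a ubiquitin ligase subunit and heme oxygenase, followed at 0.90 (edgeR adjusted p = 3.6e-05) and 0.86 (edgeR adjusted p = 0.00047). Ca9 rested on 116 and 96 estimated counts in neonates and 46 and 44 in adults. The other carbonic anhydrase listed, Ca12, named after its value was seen, went the other way. Ca12 stood at 206 and 227 CPM in neonates and 540 and 528 CPM in adults (log2 fold change -1.06, edgeR adjusted p = 1.5e-05). Vegfa, the main angiogenic growth factor, stood at 527 and 489 CPM in neonates and 421 and 447 CPM in adults. Its log2 fold change was 0.47 (edgeR adjusted p = 0.0018), and with library size alone 0.23 (edgeR adjusted p = 0.057), so this call depended on the scaling.

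In the other direction, Ddit4, an inhibitor of mTORC1 signalling, stood at 42.9 and 51.2 CPM in neonates and 197 and 195 CPM in adults (3.52-fold lower, log2 fold change -1.82, edgeR adjusted p = 2.0e-06). Loxl2, a collagen cross-linking enzyme, stood at 1.60 and 1.22 CPM in neonates and 6.01 and 9.31 CPM in adults (4.56-fold lower, log2 fold change -2.19, edgeR adjusted p = 0.00037). Insig2, a regulator of sterol synthesis, was lower by a log2 fold change of -1.76 (edgeR adjusted p = 4.8e-05). For each of these genes the ages did not overlap.

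**Figure D5:**
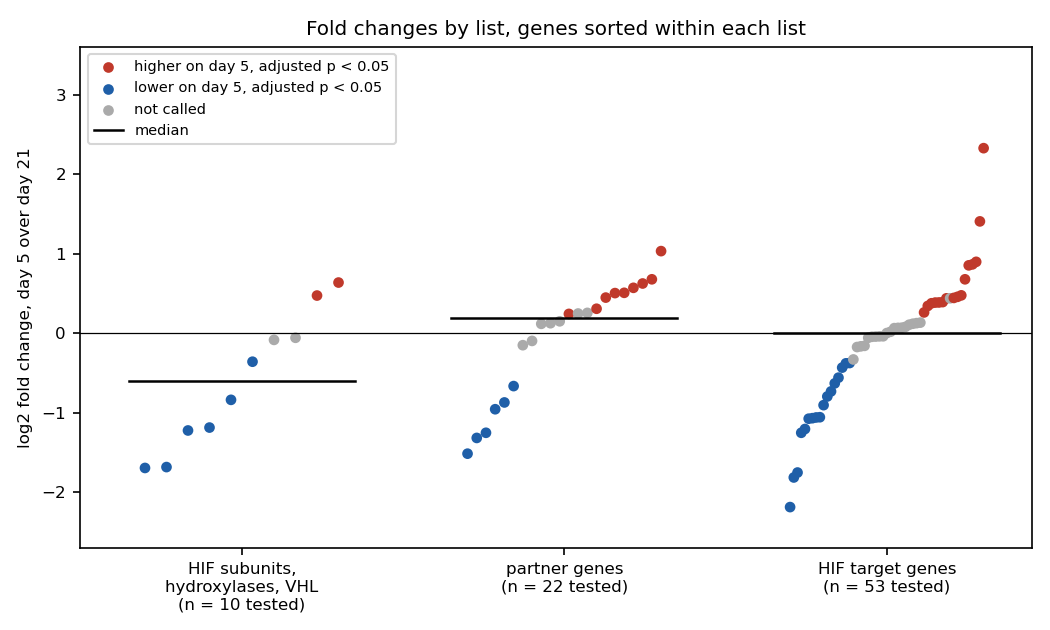
Log2 fold changes, neonate over adult, of the genes tested in each list, with calls at an adjusted p below 0.05 marked and the median drawn. The 10 HIF machinery genes have a median of -0.60, while the partners (0.19) and the targets (0.00038) spread over both sides of 0.

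A further 8 genes are tied to HIF-2 or to the oxygen response of glomus cells, and 7 of them were tested. Of these, 1 was higher in neonates (14.3%, against 31.2% of all genes), 2 were lower (28.6%, against 31.1%) and 4 did not pass. Cox4i2, an isoform of a cytochrome c oxidase subunit found in oxygen-sensing cells, was at 315 and 274 CPM in neonates and 221 and 180 CPM in adults, 1.75-fold higher in neonates (log2 fold change 0.80, SE 0.12, edgeR adjusted p = 0.00049). This was the opposite direction to Epas1 in the same libraries. Ndufa4l2 and Higd1c, which encode other mitochondrial proteins of these cells, had log2 fold changes of 0.08 (edgeR adjusted p = 0.55) and 0.17 (edgeR adjusted p = 0.23). For Ndufa4l2 the levels were 746 and 747 CPM in neonates and 923 and 747 CPM in adults, and for Higd1c they were 42.0 and 43.3 CPM in neonates and 49.7 and 40.2 CPM in adults. Pyruvate carboxylase (Pc) had a log2 fold change of -0.19 (edgeR adjusted p = 0.18).

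Of the G-protein regulators in that list, Rgs5 was lower in neonates, at 272 and 247 CPM against 1088 and 1062 CPM (3.49-fold, log2 fold change -1.80, SE 0.099, edgeR adjusted p = 3.1e-06). Rgs5 also marks pericytes. Of the 8 pericyte and smooth muscle markers, 5 were lower in neonates (31.1% of all genes) and 2 were higher (31.2% of all genes). The higher ones were Pdgfrb and Kcnj8, with log2 fold changes of 0.31 and 0.66. Whether the lower Rgs5 follows cell makeup was not tested. Rgs4 stood at 1910.4 and 1856 CPM in neonates and 2173 and 1896 CPM in adults, with a log2 fold change of 0.13 (edgeR adjusted p = 0.31). Th, the rate-limiting enzyme of catecholamine synthesis, was lower by a log2 fold change of -0.45 (edgeR adjusted p = 0.016). That call was lost without neonatal replicate 2 (edgeR adjusted p = 0.097) and without adult replicate 1 (edgeR adjusted p = 0.071). Epo, the classical HIF-2 target, had 0 counts in all 4 libraries, against a floor of 3 counts or at most 0.0827 CPM.

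Genes with the pattern most like that of Egln3 and Hif1an, the members with the largest called change in each direction, were sought by distance between log2 levels centred on the mean of the 4 libraries. For Egln3 the nearest were Fopnl, Bcas2 and Txnl4a, at distances of 0.013, 0.017 and 0.021, and 1582 genes lay within 0.25. For Hif1an they were Hdx, LOC103690173 and Scn2b, at 0.069, 0.084 and 0.11, with 20 genes within 0.25. The pattern of Egln3 was thus shared by many genes, whereas that of Hif1an, with its unequal neonatal libraries, was shared by few.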

How the data were processed

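RNA was measured in 4 libraries of rat carotid body, 2 at day 5 and 2 at day 21. Per the labels and methods, the authors selected poly A+ RNA, sequenced it in paired ends, aligned with STAR to Rnor_6.0 and quantified with Salmon (1.5.2). The deposited values are estimated counts per gene, not normalised, and were rounded to whole numbers here. Whether counting used strand is not given in the sources used here. Genes whose symbol RefSeq lists under a biotype other than protein-coding (636) were removed, 18582 protein-coding genes and 13665 without a listed biotype were kept, and a gene was tested where 2 or more libraries reached 1 CPM (13843 of 32883). Ages were compared with the edgeR (4.0.16) quasi-likelihood test in R (4.3.3), with TMM normalisation, all 4 libraries and no covariate, and a call is an adjusted p below 0.05. Ratios were compared with exact permutation tests written in Python (3.11.15), with the Benjamini-Hochberg adjustment from SciPy (1.17.1). Alternatives were DESeq2 (1.42.0), limma-voom (3.58.1), other scalings and filters, a replicate block, and leaving out each library.

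The 10 genes and all lists were chosen with earlier results of these data known. Named genes are the 10, the 4 called partners and targets with the largest change in each direction, the VHL ligase subunits, Ep300, Crebbp, Vegfa and the glomus HIF-2 list; others are said to be named after their values were seen. Marker lists covered 12 cell classes. Listed symbols not analysed here were Npas3, Gapdh, Pecam1, Col1a2 and Ttn. The labels call the libraries of an age biological replicates, each a pool of animals, and the floor of 3 counts covers counting error only.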

Additional observations from a re-analysis of the deposited data

How the results depend on the processing

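The 8 calls among the HIF machinery genes kept their direction and their side of the threshold under every alternative in which they were tested. Hif3a and Hif1an were not tested where a mean of 5 CPM was required. With scaling by library size alone Hif1a was called lower (-0.33), HIF target genes called higher fell from 16 to 6, and log2 fold changes turned sign for Cul2 (-0.13), Rbx1 (-0.00054), Ndufa4l2 (-0.16), Higd1c (-0.075) and Rgs4 (-0.11), none of which was called with TMM, and for Rack1 (-0.0042), which was. It ended 3 of 15 partner calls and 10 of 33 target calls, and over all alternatives 12 of the 15 and 19 of the 33 were kept. The targets Ca9 and Loxl2 are counted there as not kept only because they were not tested where a mean of 5 CPM was required. With each library left out in turn, log2 fold changes ranged from -2.29 to -1.25 for Hif1an, from -2.01 to -1.40 for Hif3a, from -0.10 to 0.010 for Egln1, from -0.097 to 0.23 for Ndufa4l2 and from -0.010 to 0.31 for Higd1c. Partner genes called higher numbered 6 to 9 in those fits, target genes called higher 11 to 15 and those called lower 16 to 18. The cause was not tested. Libraries of the 2 ages are matched by replicate number only, and whether same-numbered pools share litters is not stated. The deviations of neonatal and adult replicate 1 were correlated at -0.015, which with 2 pairs cannot settle this. With the replicate block, 2 HIF machinery genes were higher and 6 lower, as without it, 11 partners were higher and 6 lower, and Rbx1 (0.24, edgeR adjusted p = 0.043) and Crebbp (0.25, edgeR adjusted p = 0.015) were added. With 2 libraries per age, Hif3a and Hif1an rest on 31 to 216 counts and are the least precise of the 10.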
